A study of Mus musculus with 12 samples.

Results

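The cytosolic ribosomal protein genes were examined in CUT&RUN peak lists from Min6 cells, which derive from a mouse insulinoma and stand in for pancreatic β cells. CUT&RUN releases and sequences the DNA next to an antibody target. The members were the protein-coding genes of the GENCODE vM21 annotation (GRCm38) named as a ribosomal protein of the large subunit (Rpl, Rplp) or the small subunit (Rps, Rpsa). This gave 80 genes, 49 of the large and 31 of the small subunit, of 21938 protein-coding genes outside the mitochondrial chromosome. Rps4l is a pseudogene in this annotation and was not a member.

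Min6 cells were kept for 48 h with DMSO, the vehicle control, or with 20 µM of SP600125, a JNK inhibitor (JNKi). Both arms were the same tumour-derived line, so each group is a model of β cells and not primary tissue. Each arm was profiled with antibodies to cJun, to trimethylated lysine 4 of histone H3 (H3K4me3) and with a control IgG, in 2 samples per group that are labelled as biological replicates (12 samples in 6 groups). The cJun and H3K4me3 samples of each arm had 1 merged peak list per group, and each list also gives the start, end and −log10 p of every peak in both replicates, so that widths and −log10 p have n = 2 per arm. A count of peaks or of genes has no replicate, and while the stated sequencing depth was 30000000 paired-end reads per sample, the lists hold no read counts.

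The H3K4me3 lists held 19372 (DMSO) and 19032 (JNKi) peaks, and the cJun lists 4960 and 1632. Of 8 β cell markers, 7 had an H3K4me3 peak near a start site in both arms, among them Ins2, Pdx1, Mafa, Nkx6-1, Neurod1 and Slc2a2, while Ins1 had none. All 3 acinar, 3 duct and 3 endothelial markers were without a peak. Single markers of other cells carried one, namely the macrophage gene Cd68 and the collagen gene Col1a1, as did Gcg and Irx2 of the α cell list.

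Ribosomal proteins are made in near-equal amounts from genes scattered over the genome and assembled in the nucleolus with ribosomal RNA. Their genes are short, highly transcribed and active in every dividing cell, and many carry small nucleolar RNA (snoRNA) genes in their introns. Transcription of most of them begins inside a stretch of pyrimidines, so that the mRNA opens with the terminal oligopyrimidine (TOP) sequence through which mTOR controls its translation. H3K4me3 marks the first nucleosomes of active genes and spreads into the gene body where transcription is strong. cJun is a subunit of the AP-1 transcription factor and is phosphorylated by JNK.

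The pyrimidine start is shown first because it is the feature that the TOP class of mRNA is named for. Windows from 250 bases before to 50 bases after a start site were taken from RefSeq (GRCm38.p6), which matched 60 of the 80 members, and 57 of these carried H3K4me3 in DMSO. The 30 bases around the annotated start are printed 5′ to 3′ on the gene's strand, with the 15 bases before the start first and the longest pyrimidine run in capitals. The first 5 windows hold the longest runs.
Rpl7a (chr2:26910792-26910821, + strand): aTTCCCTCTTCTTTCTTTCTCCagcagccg
Rpl27a (chr7:109519180-109519209, + strand): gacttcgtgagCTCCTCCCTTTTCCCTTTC
Rpl35 (chr2:39005117-39005146, − strand): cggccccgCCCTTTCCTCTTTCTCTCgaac
Rpl34 (chr3:130730323-130730352, − strand): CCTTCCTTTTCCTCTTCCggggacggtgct
Rpl15 (chr14:18270972-18271001, − strand): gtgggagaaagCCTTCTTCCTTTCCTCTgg
The next windows belong to 5 genes whose peak width is described below, and the last, Rpl24, has the shortest run of all.
Rps18 (chr17:33955651-33955680, − strand): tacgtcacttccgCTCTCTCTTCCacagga
Rpl13a (chr7:45128731-45128760, − strand): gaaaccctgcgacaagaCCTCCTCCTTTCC
Rpl28 (chr7:4792950-4792979, + strand): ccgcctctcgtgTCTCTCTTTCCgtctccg
Rpl13 (chr8:123102335-123102364, + strand): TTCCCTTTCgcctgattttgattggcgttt
Rpl37 (chr15:5116598-5116627, + strand): agTTTCCTgggcggaagcttatccacagga
Rpl24 (chr16:55966260-55966289, + strand): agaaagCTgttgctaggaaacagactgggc
The run length varied between members, and annotated starts are not mapped 5′ ends, so that a run may lie some bases from the true start.

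A pyrimidine run of at least 8 bases lay within 25 bases of the start in 28 of the 57 windows (49.1%), against 18.3% of 10216 windows of other H3K4me3-marked genes. The letters CTTTCC, which can lie inside such a run, were found there in 9 of 57 members (15.8%) and in 2.14% of the others, and anywhere in the window on the sense strand in 36.8% and 14.0%. The ETS core CCGGAAG, bound by GABP and its relatives, was present on either strand in 24 members (42.1%) and in 18.02% of the others. The YY1 core AAGATGG was present in 8 members (14.0%) and in 7.06% of the others. The GC box GGGCGG of Sp1-like factors was in 59.6% and 66.3%. The AP-1 site TGACTCA, the letters cJun dimers prefer, was in 2 members (Rpl22 and Rpl9, 3.51%) and in 3.04% of the others. The related CRE TGACGTCA was in 5 members (8.77%) and in 3.31% of the others, and the TATA letters TATAAA on the sense strand were in 8.77% and 3.80%. The NRF1 letters GCGCATGC (3.51% against 5.56%) and the E box CACGTG (8.77% against 10.1%) were searched on both strands as well. Members were somewhat poorer in G and C, with a median of 58% against 61.7%, and had a higher ratio of observed to expected CpG (0.870 against 0.769).

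**Figure D1:**
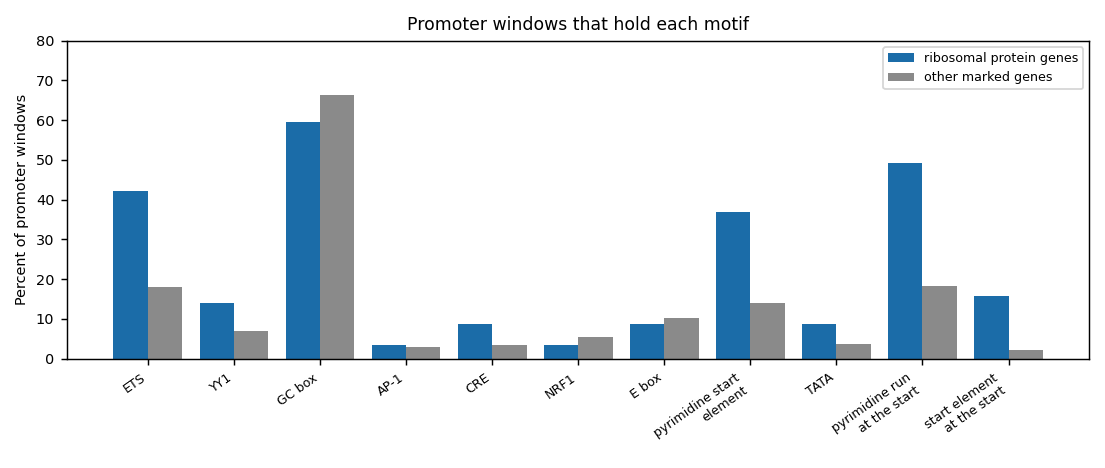
Percent of 57 promoter windows of ribosomal protein genes (blue) and of 10216 windows of other H3K4me3-marked genes (grey) that hold each motif, from 250 bases before to 50 after the start. The blue bars are higher for the ETS core (42.1% against 18.02%) and for the pyrimidine run at the start (49.1% against 18.3%), and AP-1 is near equal (3.51% against 3.04%). The start element is CTTTCC.

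Nearly every ribosomal protein gene was marked. A gene was called marked when a peak lay within 3 kb of one of its start sites, and of several peaks the one with the highest −log10 p in the merged list stood for the gene. In DMSO 77 of 80 members were marked (96.3%), against 13111 of 21858 other protein-coding genes (60%). In JNKi the same number, 77, was marked, against 12985 others (59.4%). The 3 genes without a peak in either arm were Rpl10l, Rpl39l and Rpl3l. They are paralogues of Rpl10, Rpl39 and Rpl3 known for restricted expression, Rpl10l and Rpl39l in testis and Rpl3l in striated muscle, and their parent genes were all marked. Rps27l, a paralogue of Rps27 that p53 can induce, was marked in both arms.

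The peaks were wide. The merged peak at a member had a median width of 3380 bp in DMSO (quartiles 2799 and 3971 bp), against 2571 bp at the other marked genes. The first and second DMSO replicates had member medians of 3216 and 3196 bp, and the JNKi replicates 3092 and 2932 bp, so that every replicate median lay above the merged-peak median of the other genes in its arm (2638 bp in JNKi). Large and small subunit genes were alike, with DMSO medians of 3317 and 3464 bp. A width of 5 kb or more was reached by 9 members in DMSO (11.7%, against 4.93% of the others) and by 5 in JNKi (6.49% against 5.17%).

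The widest DMSO peak was at Rps18, which encodes a protein of the small subunit head, with 7611 and 7457 bp in the replicates. Rpl13a had 7271 and 7118 bp. Rpl35 followed with 7048 and 6693 bp, Rpl18 with 6628 and 5914 bp, and Rps2 with 6204 and 6598 bp. Rpl24 had 5320 and 5642 bp and Rps15 had 5470 and 5566 bp. Of the genes named here, only Rpl24 had a peak that lay near no other protein-coding start site. Rps18 shared its peak with B3galt4 and Vps52, Rpl35 with Arpc5l, Rpl18 with Fam83e and Sphk2, Rps2 with Ndufb10 and Rnf151, and Rps15 with Apc2. Over all members 25 of 77 DMSO peaks were shared with another protein-coding gene.

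At the other end, Rpl37 was represented by a weak side peak of 429 and 511 bp, since its main DMSO peak (4053 and 4029 bp) had a lower merged −log10 p. The other narrow peaks were at Rps29 (1340 and 1432 bp), Rps23 (1927 and 1907 bp), Rpl36a (1707 and 2032 bp), Rps20 (2121 and 2224 bp) and Rps26 (2336 and 2259 bp). Rplp2 had 2277 and 2422 bp and Rps27l had 2370 and 2412 bp. Among the genes of the P stalk, the arm of the large subunit that recruits elongation factors, Rplp0 had 2491 and 2081 bp and Rplp1 had 2649 and 2694 bp. Rpsa, a small subunit protein also known as the laminin receptor, had 2799 and 2611 bp. The 3 stalk genes and Rpsa thus lay below the member median in both replicates.

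The extra width lay on the transcribed side. The DMSO peak reached a median of 2409 bp downstream of the representative start site at members and 1586 bp at other genes, while upstream it reached 889 and 860 bp. The summit lay a median of 447 bp downstream of the start at members and 277 bp at the others, and it was downstream in 75 of 77 members (97.4%, against 79.5%). The genes were short (median length 3289 bp, against 24699 bp), and the peak covered a median of 73.0% of the gene body, against 6.21%. It covered the whole gene in 15 of 77 members in DMSO (19.5%, against 1.77%), among them Rps15, Rpl8, Rpl41, Rpl39, Rps27, Rps21, Rpl36 and Rplp1, and in 10 in JNKi. Gene length did not order the widths within the group or elsewhere. Spearman's rho was 0.079 over the 77 members, which come from the same libraries, and 0.084 over 12902 other genes marked in both arms.

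Members were also wider than other genes of similar length. Among genes of 2 to 6 kb, the 61 members had a median DMSO width of 3389 bp and the 1444 other marked genes 2413 bp. The peak covered a median of 73.0% of the body in these members and 35.1% in the others. In JNKi the widths were 3182 and 2461 bp and the covered shares 64.6% and 35.8%. The whole gene was covered in 9 of these members in DMSO (14.8%, against 4.64%), but in JNKi in 3 (4.92%, against 5.41%). snoRNA genes lay inside 29 of the 77 marked members (37.7%) and inside 1.41% of the others, and a divergent protein-coding start site within 1000 bp was about as frequent at members as elsewhere (15.6% against 14.3%).

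**Figure D2:**
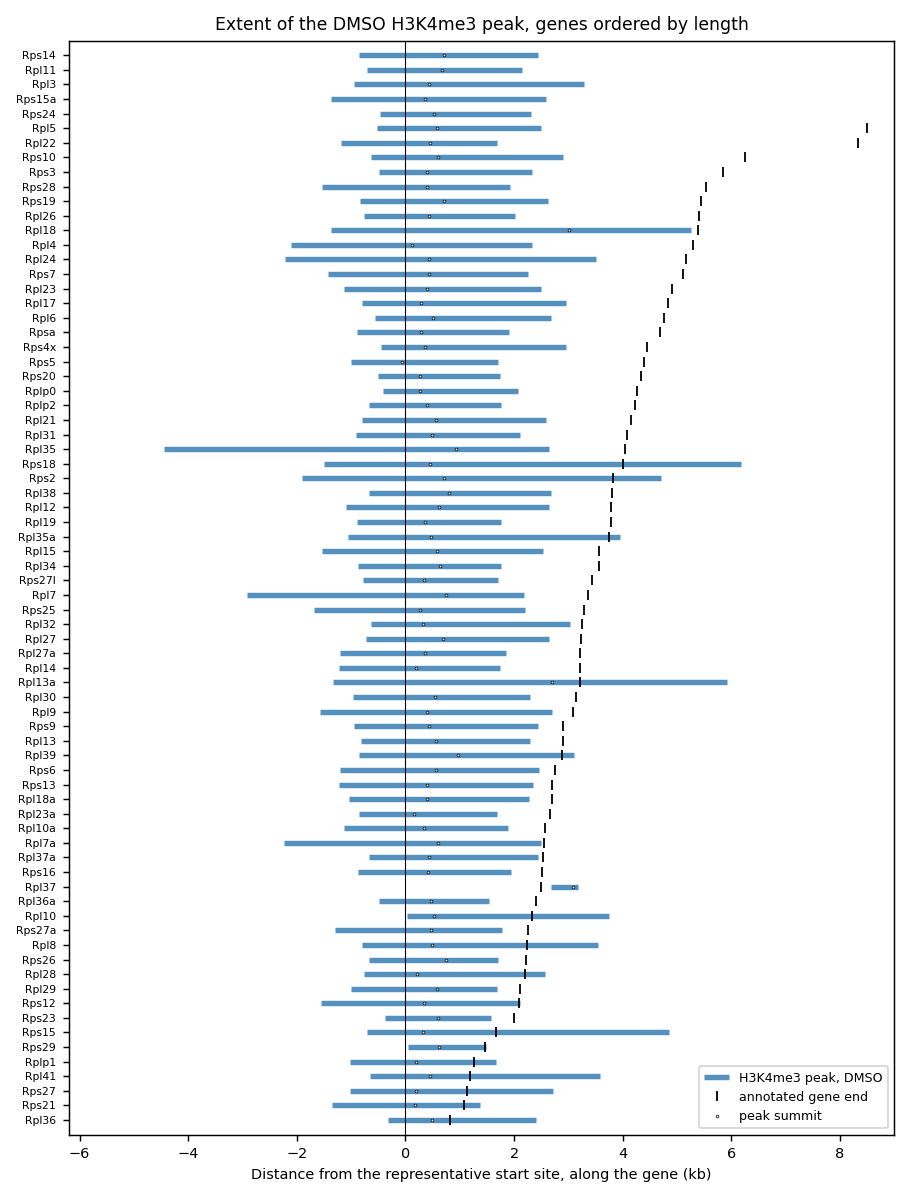
Extent of the DMSO H3K4me3 peak at marked members (blue bars), in kb from the representative start site along the gene, with the summit (white dot) and the annotated gene end (black tick). Gene ends beyond 9 kb are not drawn. Genes are ordered by length, and over all 77 marked members the peak reaches a median of 2409 bp downstream and 889 bp upstream of the start, past the gene end in many of the shortest genes.

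Members also ranked high in their lists. The −log10 p of a merged peak is the lower of the replicate values, and by this measure the median member stood at percentile 89.6 of all DMSO peaks and 87.3 of all JNKi peaks, against 70.2 and 70.1 for the other marked genes. At least percentile 90 was reached by 37 of 77 members in DMSO (48.1%, against 17.7%) and by 35 in JNKi (45.5%, against 17.5%). The best-ranked member was Rps2 in DMSO (rank 20, −log10 p of 795 and 678) and Rpl29 in JNKi (rank 43, 688 and 744).

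**Figure D3:**
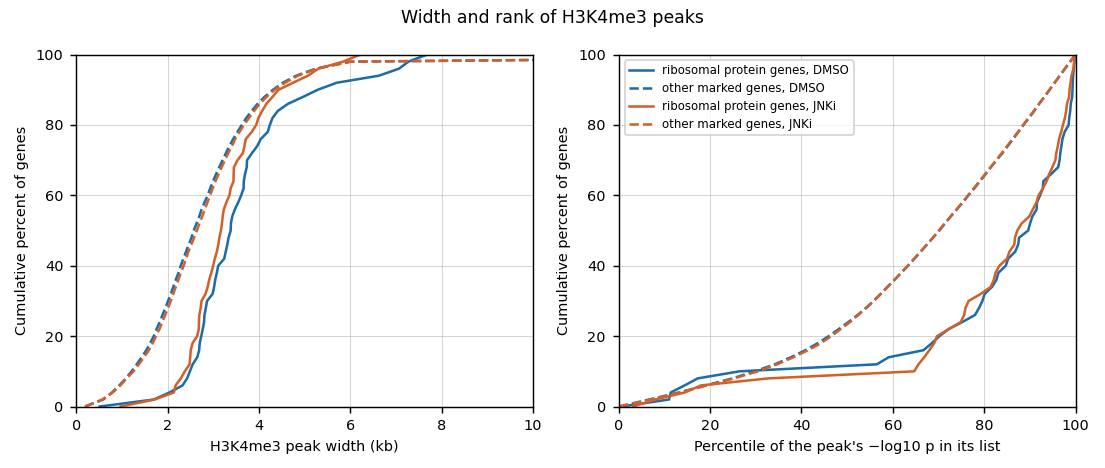
Cumulative percent of genes by H3K4me3 peak width in kb (left) and by the percentile of the merged −log10 p within its list (right), for members (solid) and other marked genes (dashed) in DMSO (blue) and JNKi (orange). The solid lines lie to the right, with median widths of 3380 bp (DMSO) and 3167 bp (JNKi), and the short rise at low percentiles on the right panel holds members whose merged −log10 p was low in 1 replicate or in both.

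A small set of members had merged values far below what 1 of their replicates showed. Replicates were called discordant when the higher −log10 p was at least 100 and more than 5 times the lower. This held for 7 of 77 members in DMSO (9.09%, against 3.29% of the others) and for 6 in JNKi (7.79%, against 2.74%). In DMSO they were Rpl8, Rpl24, Rpl35a, Rpl38, Rps4x, Rps19 and Rps24. At Rpl24 the −log10 p was 7.09 and 493 in DMSO and 662 and 8.62 in JNKi, with widths of 5320, 5642, 5647 and 4824 bp. Rps19, a gene mutated in Diamond-Blackfan anaemia, had 521 and 14.1 in DMSO and 487 and 428 in JNKi, with widths of 3100, 3476, 3092 and 3128 bp. Replicate widths of a member were a median of 162 bp apart in DMSO (182 bp in JNKi). Among discordant peaks the gap was narrower than this at Rpl8 (4339 and 4234 bp) and Rps24 (2721 and 2598 bp) in DMSO. In JNKi it was narrower at Rpl32 (3651 and 3650 bp) and Rpl35a (4125 and 3960 bp). The other discordant peaks, both of Rpl24 and that of Rps19 among them, had wider gaps. Which peaks were joined before the values were assigned was not tested.

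**Figure D4:**
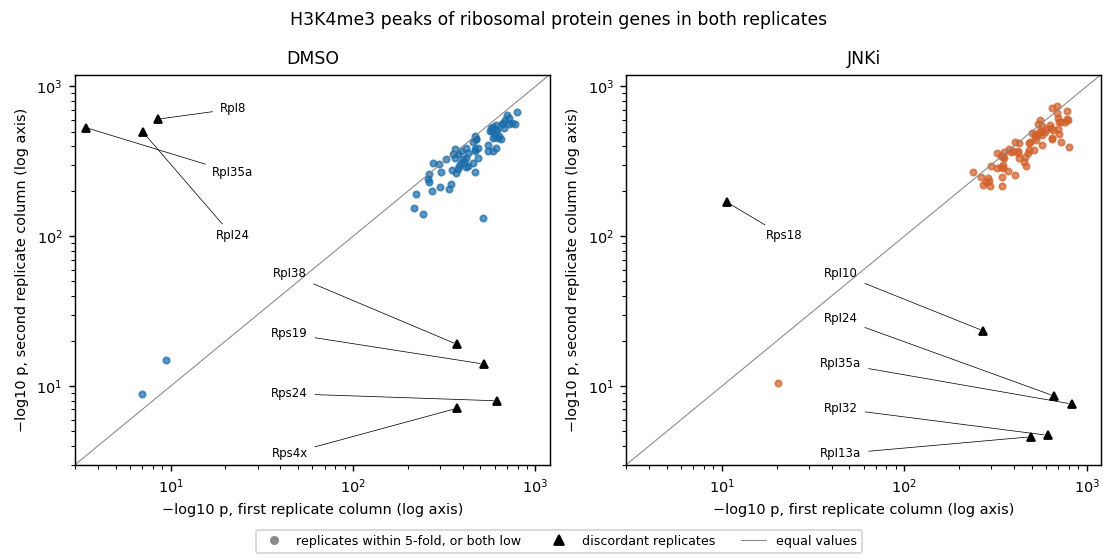
−log10 p of the member H3K4me3 peaks in the first and second replicate column (log axes), for DMSO (left) and JNKi (right), with discordant peaks as named triangles and the line of equal values in grey. Most members lie along the line, and 7 DMSO and 6 JNKi members lie far from it.

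The irreproducible discovery rate (IDR) scores how well the ranks of a peak match between replicates, with low values for a close match. An IDR of at most 0.05 was met by 59 of 77 members in DMSO (76.6%, against 88.9% of the other marked genes) and by 57 in JNKi (74.0%, against 89.8%). Of the 18 DMSO members above it, 7 had discordant replicates, while 9 had a −log10 p over 100 in both replicates. Rpl18 is an example of the latter, with 774 and 560 in DMSO and an IDR of 0.306, the highest value in that list. In JNKi 14 of the 20 members above 0.05 were over 100 in both replicates, among them Rpl29 (688 and 744, IDR 0.282).

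cJun peaks lay near few of these genes. In DMSO 5 of 77 marked members had a cJun peak within 3 kb of a start site (6.49%), against 1665 of 13111 other marked genes (12.7%), and in JNKi 1 of 77 (1.30%), against 615 of 12985 (4.74%). The 5 genes were Rpl14, Rps2, Rps14, Rps27l and Rpsa, and all of these peaks overlapped H3K4me3. The gap to the other genes was smaller for peaks that overlapped a start site, with 4 of 76 members (5.26%, against 6.16%) in DMSO and 1 of 77 (1.30%, against 2.36%) in JNKi. At an IDR of at most 0.05 in both lists it was absent in DMSO, with 1 of 60 members (1.67%, against 1.46%). The cJun list was also shorter in JNKi, with 1632 peaks against 4960, and a difference between single merged lists has no replicate error.

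The 3 sequences below surround the cJun summits that lay upstream of a member's own start, and are printed to show which motifs they hold. They are read on the plus strand, which is the strand of each gene (GRCm38.p6). Capitals mark the GC box GGGCGG and the ETS core CCGGAAG in either orientation. No AP-1 site, CRE, YY1 core or E box was present in them.
Rpl14 (chr9:120571176-120571276): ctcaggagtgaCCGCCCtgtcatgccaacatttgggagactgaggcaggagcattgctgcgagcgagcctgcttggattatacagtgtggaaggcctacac
Rps2 (chr17:24719713-24719813): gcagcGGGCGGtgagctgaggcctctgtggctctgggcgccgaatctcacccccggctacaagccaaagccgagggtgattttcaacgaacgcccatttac
Rps27l (chr9:66946007-66946107): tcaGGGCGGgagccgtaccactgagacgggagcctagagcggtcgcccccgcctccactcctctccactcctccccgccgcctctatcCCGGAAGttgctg
The letters TGACTCA were absent within 100 bp of all 5 DMSO summits and of the JNKi summit near members. Their share was 4.37% of 1693 DMSO cJun peaks near other marked genes and 10% of all 4960, wherever these lie. With so few summits and so low a share an absence is likely at any genes, so it does not set the members apart.

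At Rpl14 the cJun peak (chr9:120570263-120571708) reached −log10 p values of 10.5 and 11.6 in DMSO, rank 676 of 4960, with the summit at −218 bp from the start. Rps2 had 9.75 and 8.96 (chr17:24719682-24719924, rank 1003), at a peak that also lies near Rnf151. Rps27l had 6.96 and 6.02 (rank 2437) with the summit at −29 bp, and Rpsa had 5.19 and 4.34 (rank 3891) with the summit 221 bp downstream of the start. The list's maximum was 191, but only 5 of its peaks reached 100 in a replicate. By rank Rpl14 and Rps2 stood in the upper part of the list and Rpsa in the lower part. The IDR was 0.128 at Rpl14, 0.209 at Rps2 and 0.729 at Rps27l and Rpsa.

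Rps14, a small subunit gene on chromosome 18, was the only member with a cJun peak in both arms. Its −log10 p was 15.4 and 12.4 in the DMSO replicates (rank 439, IDR 0.0447) and 6.86 and 31.4 in the JNKi replicates (rank 680 of 1632, IDR 0.452). This peak was at a distant alternative start that lies beside Ndst1. Its summit was at −26849 bp from the representative start of Rps14 in DMSO and at −27142 bp in JNKi. None of the members had a cJun peak at its representative start after JNK inhibition.

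Between arms, most member widths changed little, though the share that did so was lower than among all genes. Widths were compared by limma on the log2 width in each replicate, fitted over all 12979 genes marked in both lists, with Benjamini-Hochberg adjustment and a call at an adjusted p of at most 0.05. The change was under 20% (less than 1.2-fold either way) at 64 of 77 members (83.1%, against 91.7% of all genes). The test called 1 member wider in JNKi, against 1.16% of all genes, and 6 members narrower, against 0.77%. The wider gene was Rpl37, and the narrower ones included Rpl13, Rpl35, Rps18, Rpl13a and Rpl28. With any 1 replicate left out, the change at every called member kept its sign. It ranged from 2.80 to 3.05 at Rpl37 and from −2.26 to −1.62 at Rpl13. In these fits 1 arm has a lone sample, so only the size of the change is given.

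**Figure D5:**
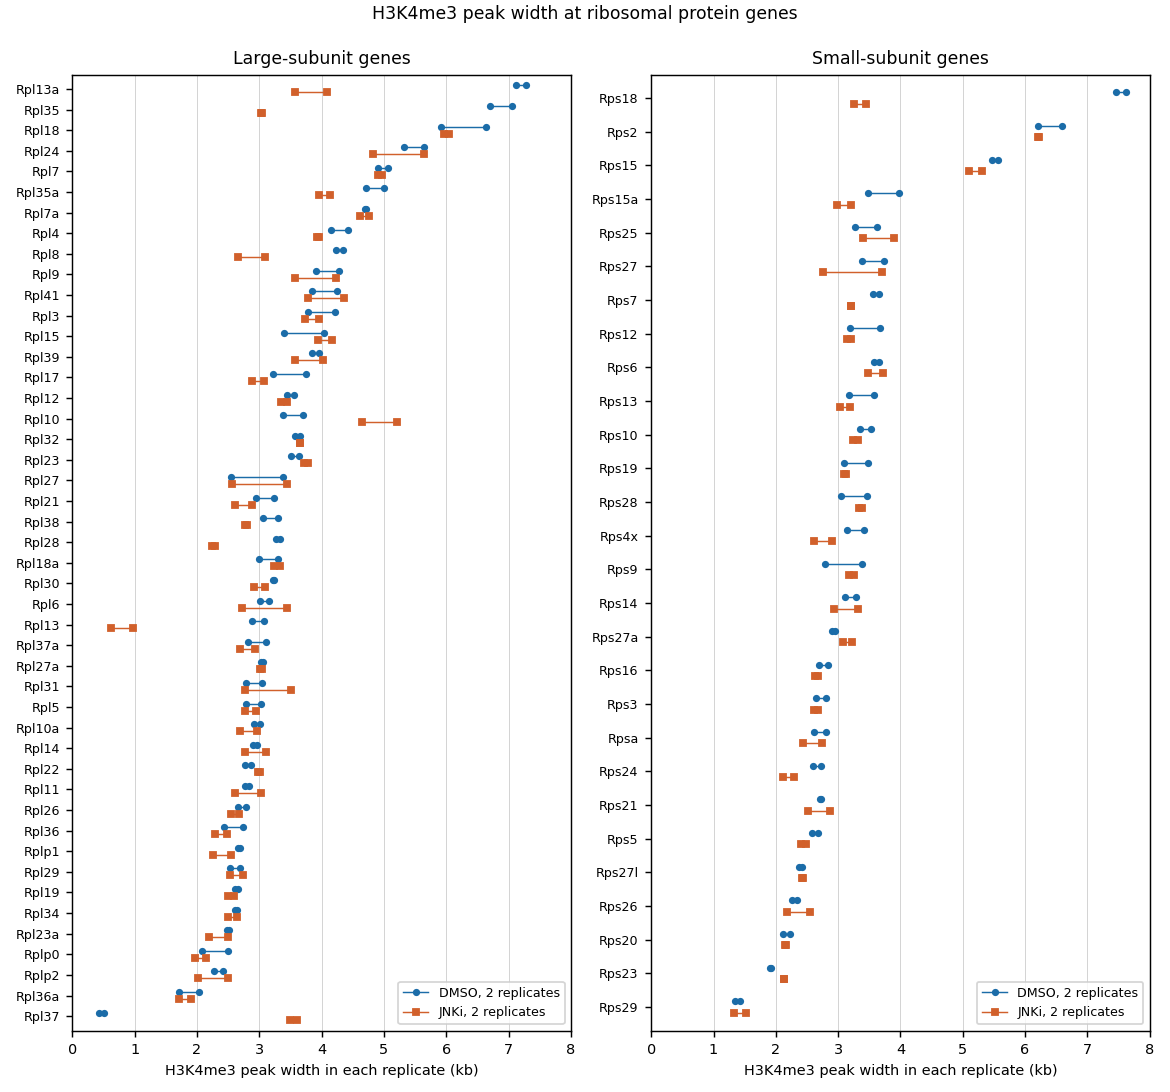
H3K4me3 peak width in kb in each replicate (points, joined within an arm) at marked members, for DMSO (blue circles) and JNKi (orange squares), with large subunit genes on the left and small subunit genes on the right, ordered by the merged DMSO width. The arms overlap or lie close at most genes, and stand apart at Rps18, Rpl13a, Rpl35, Rpl13, Rpl28 and Rpl37, which were called, and at Rpl8 and Rpl10, which were not.

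At Rps18, Rpl35 and Rpl13a the DMSO peak faced 2 or more JNKi peaks. Rps18 measured 7611 and 7457 bp in DMSO and 3453 and 3248 bp in JNKi (log2 change −1.17, SE 0.06, limma adjusted p = 0.00535). Its JNKi signal was listed as 2 peaks, chr17:33949609-33953061 and chr17:33953166-33957512, which together cover most of the DMSO peak chr17:33949496-33957173. The first of them stood for the gene, although it lay downstream of the start, covered 26.6% of the gene and had discordant replicates (−log10 p of 10.7 and 169). With the second, which lay over the start and measured 4245 and 4189 bp, the change was −0.84 (limma adjusted p = 0.0118). Rpl35 measured 7048 and 6693 bp in DMSO and 3026 and 3046 bp in JNKi (−1.18, SE 0.06, limma adjusted p = 0.00483), where a second peak of 3429 and 3296 bp lay next to it over Arpc5l. Rpl13a measured 7271 and 7118 bp in DMSO and 4078 and 3569 bp in JNKi (−0.92, SE 0.08, limma adjusted p = 0.0176), where its JNKi replicates were discordant (−log10 p of 496 and 4.60).

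Rpl13, Rpl28 and Rpl37 also changed their representative peak. Rpl13, known for its intronic snoRNA, measured 2884 and 3079 bp in DMSO, and in JNKi it was represented by a side peak of 968 and 622 bp (−1.94, SE 0.22, limma adjusted p = 0.0318), although its main JNKi peak measured 3257 and 3214 bp. Rpl28 went from 3327 and 3269 bp to 2288 and 2238 bp (−0.54, SE 0.06, limma adjusted p = 0.0252), while its main JNKi peak measured 4440 and 4256 bp. Rpl37 went from the side peak of 429 and 511 bp to 3497 and 3603 bp (2.92, SE 0.10, limma adjusted p = 0.00218). In each of these 3 genes the main peak had been passed over because its merged −log10 p was set by 1 low replicate. With the peak of the highest −log10 p in either replicate in its place, the changes were 0.12 at Rpl13, 0.40 at Rpl28 and −0.19 at Rpl37, and none of the 3 was called.

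When genes with joined or discordant peaks were left out, limma called 0 of 11917 genes at the adjusted threshold (669 at an unadjusted p under 0.05), and 0 of the 60 members that were left, 4 of which passed an unadjusted p of 0.05 (1 wider and 3 narrower). A peak split in 1 arm is narrower there, so this filter removes genes partly by the width change itself. It cannot show whether the removed genes changed. When the bases covered by any peak within 3 kb of the representative start were used as the width, limma called 0 of 12619 genes (957 at an unadjusted p under 0.05). It called 0 of 77 members, with 4 wider and 10 narrower at an unadjusted p under 0.05. The covered bases then changed by 0.02 at Rps18, −0.16 at Rpl35 and −0.17 at Rpl13a on the log2 scale. DMSO peaks faced by 2 or more JNKi peaks were at 5 of 77 members (6.49%, Rpl35a among them) and at 0.610% of the others, and the reverse was seen at Rpl10 and Rpl31 (2.60%, against 1.46%).

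A smaller shift was seen over the group, and its size depended on the JNKi replicate. The median log2 width change was −0.06 over the 77 members and 0.01 over all genes fitted, with 56 members below 0 (72.7%, against 45.03% of all genes). Both JNKi replicates lay below both DMSO replicates at 25 members (32.5%, against 15.4%), and above both at 8 (10.4%, against 20.6%). Other genes whose mean width lay between the members' quartiles (2665 to 3657 bp) had a median of 0.01 over 3540 genes, and other genes of 2 to 6 kb had 0.00477 over 1411. With covered bases as the width the member median was −0.03 (49 below 0 and 28 above), and without joined or discordant peaks it was −0.04, against 0.01 over all genes in both. In JNKi the first replicate had the wider peak at 63 of 77 members, in DMSO at 37. Without the second JNKi replicate the member median was −0.00369 (39 below 0 and 38 above), against 0.04 over all genes (4240 of 12979 below 0). Without the first JNKi replicate it was −0.10 (65 below and 12 above), against −0.02 (7700 below). The member median lay below that of all genes in each of these fits. The part of the difference between the JNKi replicates in this shift was not tested further, and the group as a whole was not tested.

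Rpl8 was near a call, with 4339 and 4234 bp in DMSO and 2664 and 3085 bp in JNKi (−0.58, SE 0.09, limma adjusted p = 0.0781). Rps7, Rps15a and Rpl38 lay beyond the lower quartile of the member changes (−0.12). Rps7 measured 3663 and 3566 bp in DMSO and 3209 and 3201 bp in JNKi (−0.17). Rps15a measured 3482 and 3971 bp and then 3204 and 2980 bp (−0.27). Rpl38, which is known for its part in axial skeleton patterning, measured 3306 and 3062 bp and then 2806 and 2773 bp (−0.19). In all 3 both JNKi values lay below both DMSO values, and none was called (limma adjusted p of 0.477, 0.497 and 0.52). The largest increases after Rpl37 were at Rpl10 (3378 and 3696 bp, then 5206 and 4654 bp, 0.48, where 2 DMSO peaks faced 1 JNKi peak), Rps23 (1927 and 1907 bp, then 2127 and 2126 bp, 0.15), Rpl15 (0.13) and Rps27a (0.10), and none was called.

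DMSO peaks were overlapped by a JNKi peak at 76 of 77 members (98.7%, against 98.4% of the other marked genes), the exception being the side peak of Rpl37. Across the 77 members the DMSO and JNKi widths had a Spearman's rho of 0.771, against 0.958 over 12902 other genes. The replicate widths had 0.928 in DMSO and 0.922 in JNKi, against 0.980 and 0.982. These correlations are descriptions over genes measured in the same libraries. The member value between arms includes the genes above whose representative peak changed or was split. Member widths also had a narrower spread in DMSO, with quartiles of 2799 and 3971 bp, against 1851.5 and 3396 bp at the other marked genes. The part of either in the lower member values was not tested.

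Replicate ranks of −log10 p were compared in the same way, as normal scores within each replicate column. The test called 1 member higher in JNKi, Rpl37 (3.35, SE 0.17, limma adjusted p = 0.0468), against 0.0385% of all genes, and 0 members lower, against 0.0308%. With any 1 replicate left out, the change at Rpl37 kept its sign and ranged from 3.193 to 3.497. These fits leave 1 arm with a lone sample, so only the size of the change is given here. At an unadjusted p under 0.05 limma with all replicates had 584 of 12979 genes, among them 2 members higher and 9 lower. The median change was −0.14 over members and −0.01 over all genes, with 51 of 77 members and 6852 of all genes below 0. Without joined or discordant peaks the medians were −0.15 and −0.005. Without the second JNKi replicate they were −0.05 and −0.04, and without the first −0.18 and 0.02. The group as a whole was not tested. With the peak of the highest −log10 p in either replicate limma called 0 of 12979 genes (507 at an unadjusted p under 0.05). Rpl13, represented in JNKi by its side peak, was near the threshold (−3.45, SE 0.22, limma adjusted p = 0.0547).

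Related genes were read beside the members, and 60% of all other protein-coding genes were marked in DMSO. Of 7 genes for ribosomal proteins or their fusions with names outside the rule, all 7 were marked, with a median DMSO width of 3523 bp. A cJun peak lay at 1 of them in each arm (14.3% in DMSO). Initiation factors were all marked (32 of 32, median 3347 bp). Eif1 and Eif4e had a cJun peak in DMSO (6.25%, against 12.7% of the other marked genes above), and Eif1 also had one in JNKi. Elongation factors and other TOP mRNAs were marked in 17 of 18 (3097 bp) and none had a cJun peak in either arm (0% in DMSO). Ribosome biogenesis factors were marked in 54 of 54 (2840 bp), with cJun at Sbds and Noc2l in both arms (3.70% in DMSO). RNA polymerase I genes were marked in 15 of 15 (2347 bp), with cJun at Cd3eap in both arms (6.67% in DMSO). Of 15 regulators of ribosomal protein genes, Myc, E2f1 and Larp1 had a cJun peak in DMSO (20% of the marked genes, against 12.7% of the other marked genes above), and 0 had one in JNKi (against 4.74%). All of these are small counts in short lists, and no difference was tested.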

How the data were processed

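CUT&RUN of Min6 cells was performed in 12 samples (6 groups of 2). Per the labels and the study's methods, the authors trimmed reads with Trimmomatic, aligned them to GRCm38 with Bowtie2 (2.4.2), filtered with SAMtools (1.16), called narrow peaks per replicate against IgG with MACS2 (2.2.7.1) and paired replicates by IDR. The 4 deposited lists have 20 columns, including a score that is a scaled IDR, the −log10 of the IDR, and the −log10 p-value of the merged peak and of each replicate. Neither reads nor the IgG samples were used here, and the lists hold no read counts (stated depth 30000000 reads per sample). Replicate columns carry no number.

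The members, gene lists and motifs were chosen with earlier results of these data known. Peaks were assigned to genes within 3 kb of any of 77161 start sites of the GENCODE vM21 basic annotation. The planned peak with the highest −log10 p was read as the merged value, and the higher replicate value was tried as an alternative chosen after seeing the data. Widths and ranks were fitted with limma 3.58.1 in R 4.3.3, tested on simulated data first. The labels call the replicates biological without naming separate cultures, so p-values measure the spread between these samples, which may be technical.

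Named members were those without H3K4me3, those with cJun, the 8 widest and 8 narrowest DMSO peaks, the 5 largest changes each way, every call, 5 listed paralogues, the stalk genes and Rpsa. Some genes that the rule names are not reported here and are left out of the plots by gene. Rpl7a, Rpl27a, Rpl34, Rpl24, Rps19, Rps7, Rps15a, Rpl38 and other examples were chosen after their values were seen. Alternatives were IDR limits, distances, start sites, the widest peak, overlap, left-out replicates, centring and a variance trend.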

Additional observations from a re-analysis of the deposited data

How the results depend on the processing

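No paired analysis was possible because the replicate columns carry no numbers. At an IDR of at most 0.05 the members with cJun fell to 1 in DMSO and 0 in JNKi, and at most 0.01 to 0 and 0. The share of other marked genes with cJun was then 1.46% and 0.823% in DMSO and 1.09% and 0.488% in JNKi, and 6.16% and 2.36% for peaks over the start itself. At an IDR of at most 0.01, 51 members were marked in DMSO and 44 shared their peak. The median member width in DMSO was 3283 and 3259 bp under these limits. The median percentile was 87.004 at an IDR of at most 0.01 and 87.7 with the widest peak in DMSO, and 92.5 and 90.1 (JNKi) by the higher replicate value. Width calls over all genes (251) and members (7) were 134 and 4 with the widest peak, 135 and 4 with overlapping peaks only, 0 and 0 without joined or discordant peaks and with covered bases (both chosen after seeing the data), 294 and 8 when centred on the median gene, and 338 and 10 with a variance trend. They were 186 and 3 at an IDR of at most 0.05 and 172 and 4 by the higher replicate value. Leaving out 1 replicate gave 0 to 42 genes and 0 to 2 members. Rank calls (9 genes, 1 member) were 17 and 3 with 1 row per peak pair and 45 and 0 at an IDR of at most 0.05. They were 10 and 1 without joined or discordant peaks, and 0 and 0 with the widest peak, overlapping peaks or the higher replicate value. Leaving out 1 replicate gave 0 to 113 genes and 0 to 3 members, the highest without the first DMSO replicate. Signs turned at Rpl13 (0.12 with the widest peak or higher replicate value, 0.12 with covered bases), Rpl28 (0.40, 0.40 and 0.21), Rpl37 (−0.19, −0.19 and −0.29) and Rps18 (0.0235 with covered bases). These alternatives change or drop the peak that stands for a gene. With 2 replicates and an adjustment over 12979 genes, changes of the size of the member median are not detectable at single genes.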

Other observations

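Processed pseudogenes of ribosomal protein genes, copies made by reverse transcription, were outside every comparison. Of 294 such copies, 21 had an H3K4me3 peak within 3 kb in DMSO (7.14%) and 22 in JNKi (7.48%), against 4.47% and 4.58% of 9942 other processed pseudogenes. For 9 copies in DMSO and 10 in JNKi the peak was near no protein-coding start site (3.06% and 3.40%, against 1.90% and 2.01%). Rpl13-ps5, Rpl21-ps9, Rpl21-ps11, Rpl30-ps6, Rpl31-ps7, Rps12-ps7 and Rps15a-ps5 had such a peak in both lists. Reads of near-identical copies can be placed at more than 1 site, and the mapping of these peaks was not tested.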
